A study of Mus musculus with 60 samples.

Results

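The genes described here are the mitosis and cell cycle gene families of a mouse fibroblast line: kinesins (Kif), centromere proteins (Cenp), cyclins of the A, B, D and E classes (Ccn), genes with cell division cycle names (Cdc), subunits of the minichromosome maintenance helicase (Mcm), the Aurora kinases (Aurka and Aurkb), the checkpoint kinases Bub1 and Bub1b, and Plk1, Birc5, Psrc1 and Top2a. They were chosen by symbol, with earlier results of these data known, from an expression table, which gave 74 of its 10122 genes. Not every symbol of this kind names a cell cycle gene. The list also took in 10 kinesins that mainly carry cargo or act in cilia and signalling, and 10 Cdc genes with other main roles, such as the small GTPase Cdc42 and its effectors. These are kept apart below. Mcm4, Cdc45, Cdc25a, Cdc25c, Kif11 and Kif20a are not analysed here.

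The cells were ear fibroblasts of adult DKI mice (the labels also give the name GR NLS-iRFP-NLS) that had become immortal through repeated passaging and carry fluorescent reporters of the NF-κB subunits RelA and c-Rel at the genes' own loci. All groups came from this line, so the libraries describe 1 line and not several animals. After a night at 37 °C, cultures were moved to 24, 34, 37 or 40 °C, kept there for 2 h, and then left unstimulated or given 10 ng/mL of the inflammatory cytokine TNF-α or IL-1β for 1 or 3 h. Each of the 20 groups of temperature and treatment was sequenced from total RNA as 3 libraries that the labels call biological replicates, 60 in all. Unstimulated cells had thus spent 2 h at their temperature, cells stimulated for 1 h had spent 3 h, and cells stimulated for 3 h had spent 5 h. A cytokine response measured against unstimulated cells therefore also holds this difference in hours, and the effect of the hours and of the cytokine cannot be told apart. The 15 libraries at 24 °C carry the last library numbers of the series, so a difference tied to these numbers and 24 °C cannot be told apart either. Whether these libraries were prepared or sequenced apart from the rest is not given.

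A dividing cell passes through G1, copies its DNA in S phase, prepares in G2 and separates its chromosomes in mitosis. D cyclins act in G1 and E cyclins at entry into S phase. Cdc6 and the MCM helicase license and open replication origins, and their genes are mostly driven by E2F factors. Cyclin A2, the B cyclins, Plk1, the Aurora kinases and the mitotic kinesins act from S or G2 phase to the end of mitosis, and many of their promoters carry CCAAT boxes, bound by NF-Y, and a cell cycle homology region, bound by the DREAM and MuvB complexes. Cultured fibroblasts are a mixture of cells in all of these phases.

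Promoter sequence is shown for 7 members that rose at 24 °C, from the mitotic kinases, kinesins, cyclins, Cdc genes and MCM helicase. Each line gives the 120 bases upstream of a start site, 5′ to 3′ on the strand of the gene, from the RefSeq table of build GRCm38.p6. Capitals mark CCAAT, the cell cycle homology letters TTTGAA, or their reverse complements ATTGG and TTCAAA. The mitotic regulators are Plk1 at chr7:122159315-122159434 on the plus strand, Bub1b at chr2:118598091-118598210 on the plus strand, Ccnb2 at chr9:70421555-70421674 on the minus strand, Cdc20 at chr4:118437344-118437463 on the minus strand and Kif22 at chr7:127042421-127042540 on the minus strand. The helicase subunits are Mcm3 at chr1:20820313-20820432 and Mcm6 at chr1:128359706-128359825, both on the minus strand.
Plk1: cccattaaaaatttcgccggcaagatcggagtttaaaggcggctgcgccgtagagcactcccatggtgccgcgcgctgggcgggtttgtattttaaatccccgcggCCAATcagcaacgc
Bub1b: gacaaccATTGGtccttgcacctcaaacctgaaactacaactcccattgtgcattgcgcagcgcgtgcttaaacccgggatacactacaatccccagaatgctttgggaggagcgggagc
Ccnb2: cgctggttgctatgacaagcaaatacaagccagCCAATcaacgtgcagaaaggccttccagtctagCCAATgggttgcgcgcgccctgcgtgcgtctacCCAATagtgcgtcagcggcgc
Cdc20: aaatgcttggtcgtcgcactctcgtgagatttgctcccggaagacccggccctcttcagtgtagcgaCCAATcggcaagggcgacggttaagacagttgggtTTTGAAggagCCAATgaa
Kif22: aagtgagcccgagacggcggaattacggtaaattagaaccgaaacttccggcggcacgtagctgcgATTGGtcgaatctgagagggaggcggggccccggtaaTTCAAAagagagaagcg
Mcm3: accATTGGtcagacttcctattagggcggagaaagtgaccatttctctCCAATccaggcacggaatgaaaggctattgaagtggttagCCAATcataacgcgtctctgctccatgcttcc
Mcm6: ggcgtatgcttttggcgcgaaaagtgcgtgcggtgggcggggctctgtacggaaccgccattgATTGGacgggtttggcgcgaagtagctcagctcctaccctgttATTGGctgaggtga

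Ccnb2 and Mcm3 each showed 3 CCAAT boxes in these stretches. In Cdc20 the TTTGAA lay 18 to 13 bases before the start site, between the pair of CCAAT boxes. A promoter window, from 250 bases before to 50 after a start site, was found for 68 of the 74 members. TTTGAA on either strand was in a window of 25 of the 68, or 36.8%, against 20.2% of the 27025 genes with a window and 14.2% of the 7500 such genes measured here. By role, 7 of 8 mitotic kinesins and 3 of 5 mitotic kinases and passengers held it. CCAAT was found in 42 members, or 61.8%, against 43.4% of measured genes, and in all 5 MCM genes. The E2F-type letters GCGGGAA were found in 12 members, or 17.6%, against 10.2% of measured genes. Here 6 of 16 centromere genes and 2 of 5 MCM genes held them. Matches of different motifs may overlap, they are descriptions of letters only, and no match was tested as a binding site.

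Levels are given in FPKM, fragments per kilobase of transcript and unit of library depth, as deposited. Averaged over the 60 libraries, the members ran from 0.497 FPKM for Kif21b to 165 FPKM for the G1 cyclin gene Ccnd2, with a median of 19.2, against a median of 10.4 over all genes. Means below 5 FPKM were found for 7 members. Every member entered the tests, since no gene was removed for low values. Depth, estimated from the step size of low FPKM values, was 3.42M to 7.42M fragments a library (M for 1e+06), at 4.42 ± 0.48 M at 24 °C and 6.13 ± 0.53 M at 37 °C (SD, n = 15 each). The 5 fibroblast markers summed to between 4.01e+03 and 6.28e+03 FPKM in every library. The measured markers of keratinocytes (Krt10, up to 4.13 FPKM), of macrophages and leukocytes (Cd68 and Lyz2, summed up to 6.17 FPKM) and of endothelium (Vwf, up to 2.5 FPKM) were low throughout. Of the chondrocyte markers, Sox9, Comp and Col9a1 summed to 16.8 to 24.3 FPKM at 24 °C and 12.2 to 21.2 FPKM at 37 °C, and were also higher at 40 °C, at 15.4 to 23.4 FPKM (medians 21.6, 14 and 19.1). The 3 chondrocyte markers did not move together. Averaged over the treatments, 2 rose and 1 fell at 24 °C against 37 °C, and at 40 °C 1 rose and 2 did not pass the test. The part of these other markers in the results was not tested.

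The members also varied with the replicate number. At 34, 37 and 40 °C the replicates 1, 2 and 3 are libraries numbered 1 to 15, 16 to 30 and 31 to 45 in the labels, and at 24 °C they are 46 to 50, 51 to 55 and 56 to 60. Replicate 2 was the highest of the 3 in 52.5% of the 1110 pairs of a member and a group at 34, 37 and 40 °C, against 36.2% over all genes. It was the highest in all 15 of these groups for Ccnb1, in 14 for Plk1 and Top2a and in 13 for Aurka, but in 3 for Cdc6. At 24 °C replicate 2 was the highest in 36.5% of the member pairs. Each group holds 1 library of each number, so a term for the replicate number leaves the changes as they are and alters their errors alone. Counts with such a term, 1 term for each of the 6 runs of library numbers, are given below for most counts that move by over 1.5 times, with some of the genes whose calls it changed.

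**Figure D1:**
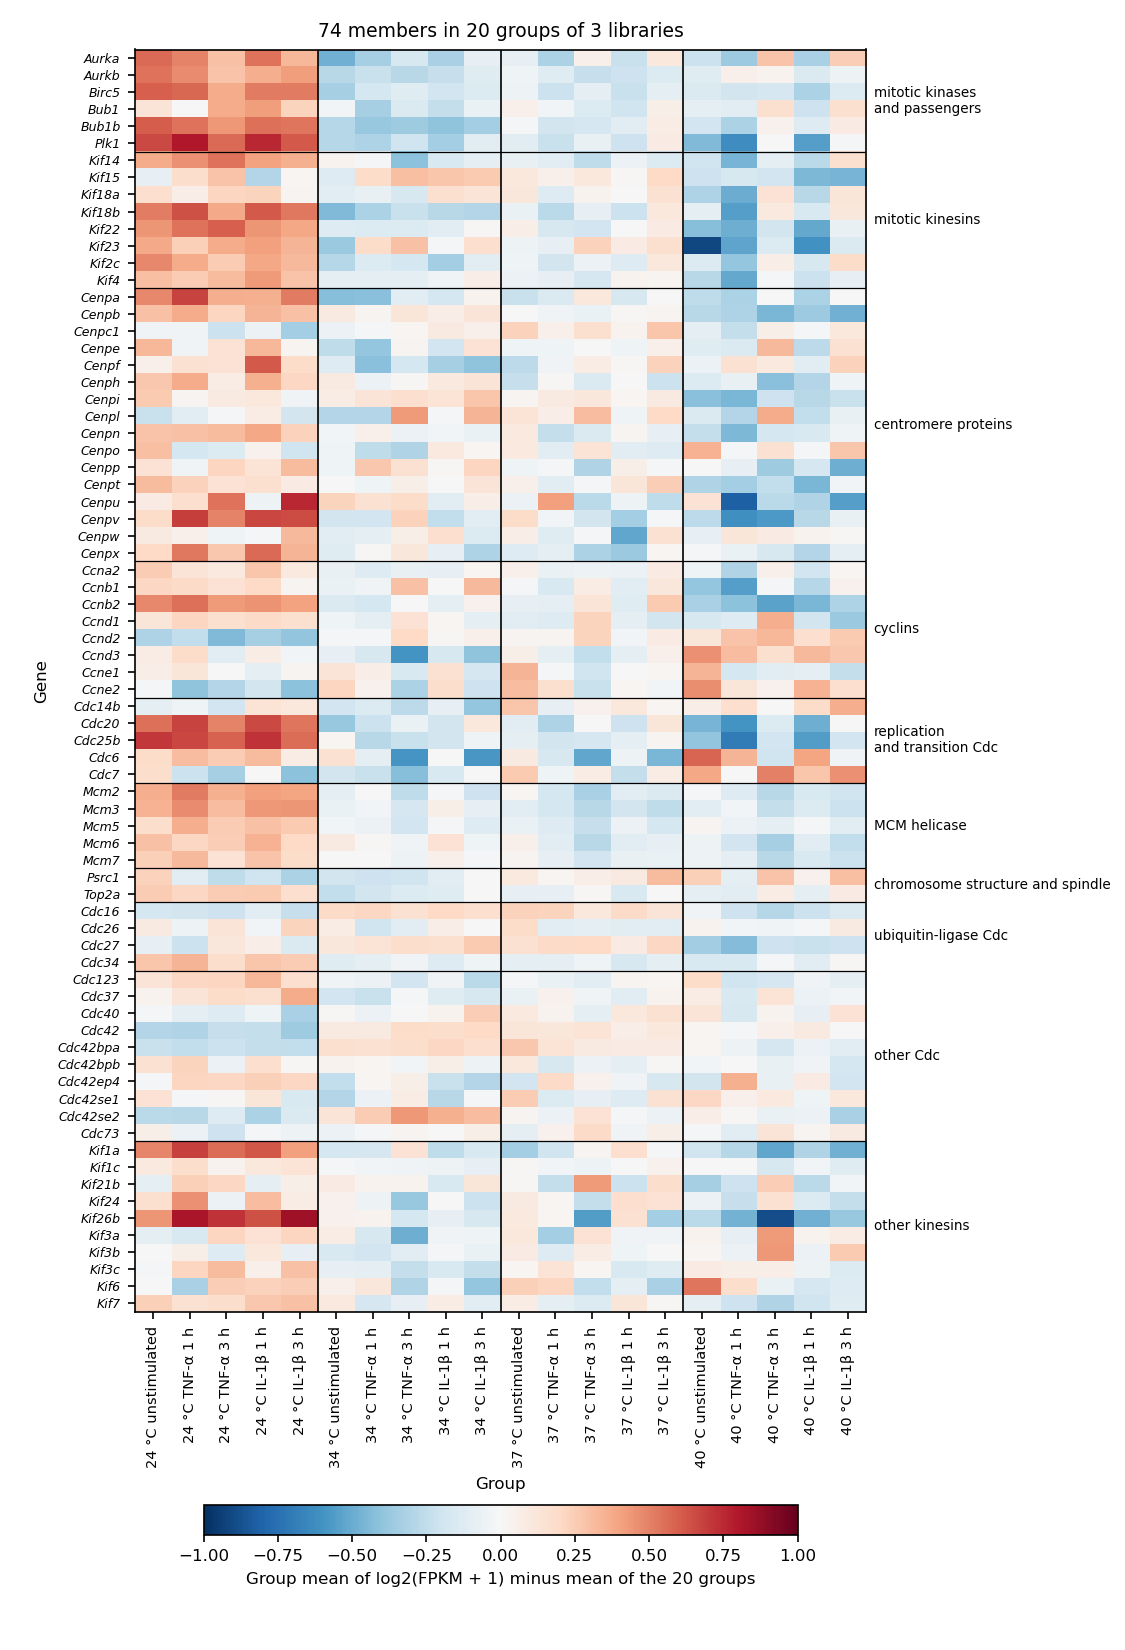
Level of each of the 74 members in the 20 groups, as the difference of the group mean of log2(FPKM + 1) from the member's mean over all groups. Rows are grouped by role and columns by temperature. Most cells of the rows of mitotic kinases and of the MCM helicase are high in the 5 columns at 24 °C.

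The main difference among these genes lay between 24 °C and the normal 37 °C. All 6 mitotic kinases and passengers and all 5 measured MCM genes were higher at 24 °C than at 37 °C, Plk1 by 1.73-fold on the fitted scale, whereas centromere, cyclin and Cdc genes moved in both directions. Averaged over the 5 treatments, 43 of the 74 members rose and 12 fell (limma on log2(FPKM + 1), Benjamini-Hochberg adjusted p below 0.05). Of all 10122 genes, 26.1% were called higher and 28.8% lower in this comparison, 54.9% in all, so a high number of calls is not particular to these genes. The member median was a log2 change of 0.21, against -0.01 over all genes. As these are bulk libraries, a larger share of cells in a phase and more RNA per cell in that phase cannot be told apart.

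All 6 mitotic kinases and passenger proteins rose at 24 °C. For Plk1, the polo-like kinase that drives mitotic entry and exit, the 15 libraries at 24 °C had a lowest, median and highest level of 66.2, 72.1 and 84.6 FPKM. At 37 °C its levels were 34.3, 41.9 and 55.4 FPKM. Every 24 °C library was thus above every 37 °C library, and also above the highest at 34 °C (47.0 FPKM) and at 40 °C (54.0 FPKM). The log2 change of Plk1 was 0.79 ± 0.06 (SE, 15 against 15 libraries, limma adjusted p = 8.5e-15). Birc5 encodes survivin, a subunit of the chromosomal passenger complex, and stood at 65.2, 79.9 and 88.2 FPKM at 24 °C against 38.5, 51.0 and 56.4 FPKM at 37 °C. Its groups did not overlap, and its log2 change was 0.65 ± 0.06 (limma adjusted p = 2.5e-13). Bub1b, which encodes the checkpoint protein BubR1, measured 24.1, 29.8 and 34.8 FPKM at 24 °C and 14.6, 19.3 and 22.4 FPKM at 37 °C, again without overlap. The kinase genes Aurkb and Aurka rose by log2 changes of 0.57 ± 0.06 and 0.54 ± 0.06. Bub1 was the weakest of the 6, with 0.28 ± 0.11 and a limma adjusted p of 0.025, and its libraries overlapped. Its call ended when any 1 of 6 libraries was left out, with adjusted p up to 0.0639 without the 24 °C IL-1β 1 h replicate 2.

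**Figure D2:**
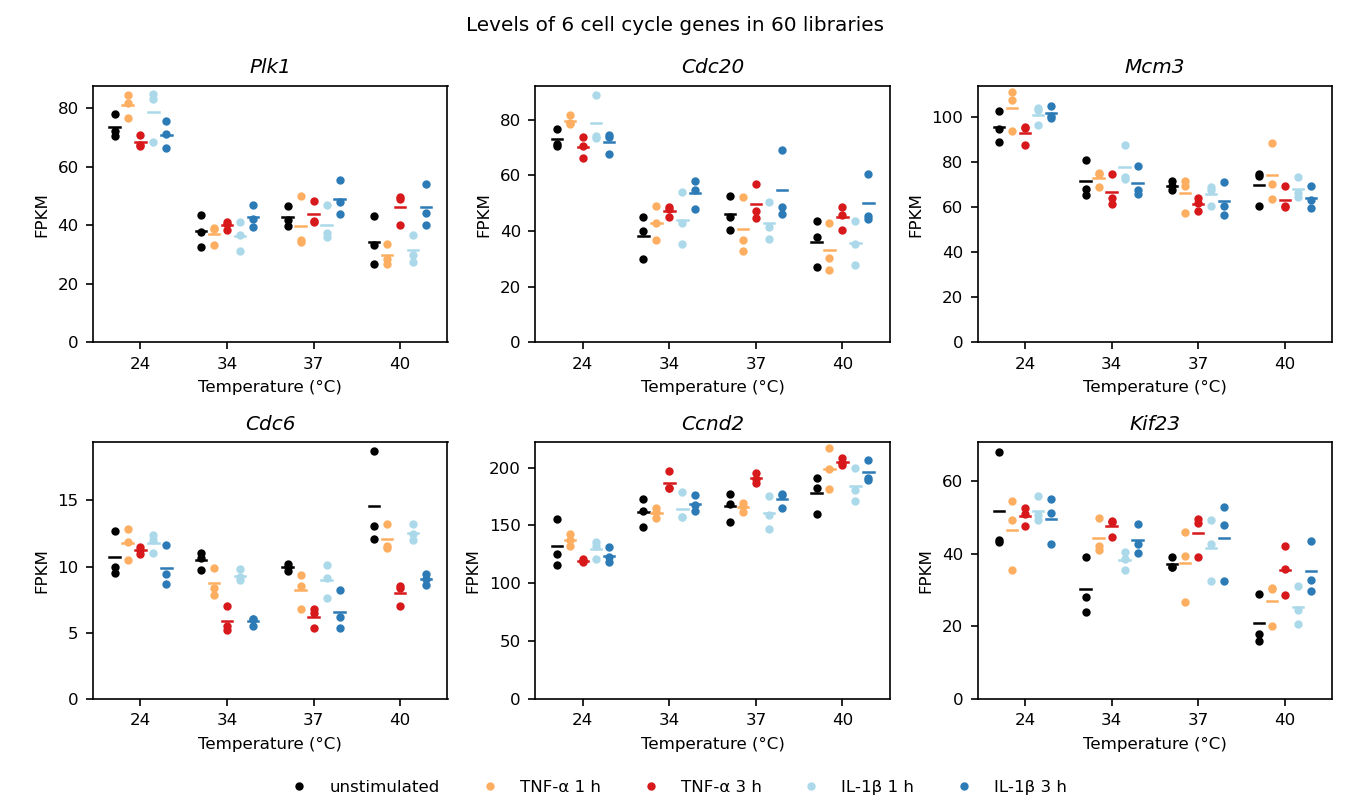
FPKM of 6 members in all 60 libraries, by temperature (°C, set at equal distances) and by treatment (colours), with 1 point a library and a dash at the mean of 3. Plk1 lies between 66.2 and 84.6 FPKM at 24 °C and below 55.4 FPKM at 37 °C, whereas Ccnd2 runs the other way.

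The MCM genes, whose products form the ring that unwinds DNA at replication forks, rose as a whole: 5 of the 5 measured subunits were called higher. Mcm3 had a lowest, median and highest level of 87.9, 99.9 and 111 FPKM at 24 °C and of 56.6, 67.6 and 71.9 FPKM at 37 °C. These ranges were far apart, although 1 library at 40 °C reached 88.7 FPKM. Its log2 change was 0.60 ± 0.05 (SE, limma adjusted p = 3.4e-15). Mcm2 ran from 86.0 to 103 FPKM at 24 °C and from 47.2 to 78.2 FPKM at 37 °C, without overlap, with a log2 change of 0.55 ± 0.04 (limma adjusted p = 2.6e-17). Mcm5 rose by 0.40 ± 0.04, Mcm6 by 0.36 ± 0.04 and Mcm7 by 0.31 ± 0.04 on the log2 scale. The last pair overlapped between the temperatures, with the lowest 24 °C library under the highest at 37 °C.

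Of the 8 mitotic kinesins, motors that build the spindle and move chromosomes, 6 rose and none fell. Kif18b, which shortens astral microtubules, measured 17.8, 22.5 and 24.8 FPKM at 24 °C and 9.96, 14.0 and 18.1 FPKM at 37 °C. Its ranges met only at their edges, and its log2 change was 0.64 ± 0.06 (limma adjusted p = 1.4e-13). Kif14, a motor needed for cytokinesis, rose by 0.55 ± 0.07 without overlap. Kif22, the chromokinesin that pushes chromosome arms, rose by 0.52 ± 0.08, and the microtubule depolymerase gene Kif2c by 0.42 ± 0.06. Kif4 rose by 0.37 ± 0.06 and Kif23, a component of centralspindlin at the midzone, by 0.28 ± 0.09. The others, Kif15 (-0.07 ± 0.10) and Kif18a (0.11 ± 0.07), did not pass the test.

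Among the 16 centromere genes, 8 rose and 2 fell at 24 °C. The histone H3 variant gene Cenpa, which marks the centromere, measured 74.8, 89.6 and 112 FPKM at 24 °C and 48.6, 56.0 and 82.5 FPKM at 37 °C, with a log2 change of 0.56 ± 0.09 (SE, limma adjusted p = 1.0e-06). Its groups overlapped at their edges. Cenpb, which binds a short box in satellite DNA, ran from 46.3 to 57.0 FPKM at 24 °C and from 37.3 to 43.3 FPKM at 37 °C, without overlap. Cenpx and Cenpv rose by 0.56 ± 0.09 and 0.61 ± 0.13, although Cenpv was low, at 5.34 ± 1.54 against 3.12 ± 0.975 FPKM (SD, n = 15 each). Cenpc1, whose product links the centromere to the outer kinetochore, fell by 0.29 and Cenpl fell by 0.22 on the log2 scale. Cenpe and Cenpf, the large kinetochore proteins of late G2 and mitosis, had changes of 0.18 ± 0.08 and 0.23 ± 0.11 and missed the threshold (limma adjusted p = 0.0563 and 0.0711). Cenpe passed with the term for library runs (adjusted p = 0.0399).

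The cyclins did not move as 1 group: 4 rose, 2 fell and 2 did not pass the test. The mitotic cyclin gene Ccnb2 measured 27.2, 29.8 and 35.6 FPKM at 24 °C and 17.7, 21.2 and 29.8 FPKM at 37 °C, with a log2 change of 0.44 ± 0.07 (SE, limma adjusted p = 3.0e-07). Ccna2 rose by 0.18 ± 0.06, Ccnd1 by 0.23 ± 0.04 and Ccnd3 by 0.10 ± 0.03. Ccnb1 had a similar change of 0.17 ± 0.08 but missed the threshold (limma adjusted p = 0.051), which it passed with the term for library runs (adjusted p = 0.00185). Ccnd2, the most abundant member, went the other way, at 116, 126 and 155 FPKM at 24 °C and 147, 170 and 195 FPKM at 37 °C. The ranges of Ccnd2 overlapped at their edges, and it fell by 0.41 ± 0.03 on the log2 scale (limma adjusted p = 7.1e-14). Ccne2 fell by 0.31 ± 0.11 (limma adjusted p = 0.018), a call that ended without the 24 °C IL-1β 1 h replicate 1 (log2 change -0.23, adjusted p = 0.0554). Ccne1 had a change of -0.00 ± 0.07.

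Of the 5 Cdc genes of replication and phase transition, 3 rose and 1 fell. Cdc25b, a phosphatase that activates CDK1, measured 26.2, 29.1 and 34.8 FPKM at 24 °C and 12.8, 17.0 and 20.9 FPKM at 37 °C. Every 24 °C library lay above every library at the other temperatures, the highest of which reached 22.2 FPKM, and its log2 change was 0.75 ± 0.05 (SE, limma adjusted p = 5.9e-17). Cdc20, the activator of the anaphase-promoting complex, measured 66.1, 73.7 and 88.9 FPKM at 24 °C and 32.7, 45.9 and 69.2 FPKM at 37 °C. Only the 37 °C IL-1β 3 h replicate 2 reached into the 24 °C range of Cdc20, whose log2 change was 0.68 ± 0.08. The licensing factor gene Cdc6 rose by 0.45 ± 0.06, and Cdc7, which encodes the kinase that activates the helicase, fell by 0.18 ± 0.08 (limma adjusted p = 0.044). The difference in Cdc6 was small in unstimulated cells, with means of 10.7 FPKM at 24 °C and 9.93 FPKM at 37 °C. It was largest after 3 h of cytokine, at 11.2 against 6.21 FPKM with TNF-α and 9.92 against 6.57 FPKM with IL-1β. Top2a, the topoisomerase that untangles chromosomes, rose by 0.29 ± 0.05 and the spindle gene Psrc1 fell by 0.25 ± 0.04.

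Subunits and partners of ubiquitin ligases split. Cdc16 and Cdc27, both scaffold subunits of the anaphase-promoting complex, fell, while Cdc34, the ubiquitin-conjugating enzyme of SCF ligases, rose. Cdc16 measured 36.5, 41.4 and 47.8 FPKM at 24 °C and 49.6, 52.9 and 57.0 FPKM at 37 °C, without overlap, and fell by 0.36 ± 0.03 on the log2 scale. Cdc34 ran from 125 to 159 FPKM at 24 °C and from 96.6 to 122 FPKM at 37 °C, and rose by 0.36 ± 0.04 without overlap.

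Among members with roles outside the cycle, the Cdc genes did not share a direction, while the kinesins that were called all rose. Of the 10 other Cdc genes 4 rose and 4 fell, with a median log2 change of -0.04, and of the 10 other kinesins 5 rose and none fell, with a median of 0.14. Cdc42, which organises actin and polarity, ran from 101 to 129 FPKM at 24 °C and from 136 to 157 FPKM at 37 °C, and fell by 0.39 ± 0.03 (SE, limma adjusted p = 3.0e-14). Its effector kinase gene Cdc42bpa fell by 0.36 ± 0.04, also without overlap. Averaged over the treatments, the largest rise of any member was that of Kif26b, a kinesin-like protein of planar polarity and WNT5A signalling. It stood at 11.6 ± 1.96 against 6.31 ± 2.00 FPKM (SD, n = 15 each), a log2 change of 0.82 ± 0.09. Its means in unstimulated cells were closer, at 9.48 FPKM at 24 °C and 7.39 FPKM at 37 °C. After 3 h of TNF-α they were 11.7 and 4.33 FPKM, and after 3 h of IL-1β 13.1 and 5.18 FPKM.

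**Figure D3:**
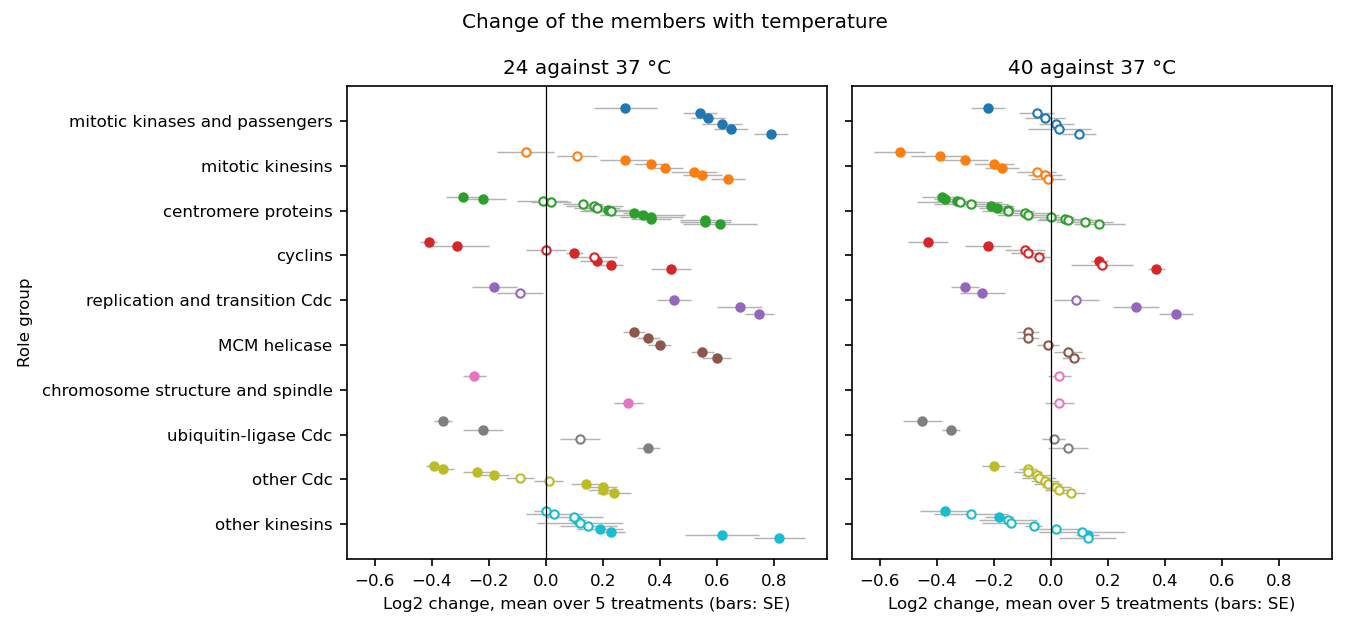
Log2 change of each member at 24 °C and at 40 °C against 37 °C, averaged over the 5 treatments, by role group, with bars of 1 SE. Filled points passed the limma test at adjusted p below 0.05. All 6 mitotic kinases and all 5 MCM genes lie to the right of 0 at 24 °C, and the MCM genes lie near 0 at 40 °C.

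In unstimulated cells alone, 2 h after the shift, 21 members rose and 5 fell at 24 °C, against 9.44% of all genes called higher and 11.3% lower (20.7% in all), and the member median was a log2 change of 0.18 against -0.03 over all genes. The calls covered 5 of 6 mitotic kinases and passengers, 4 of 5 MCM genes and 4 of 8 mitotic kinesins. Of the MCM calls, Mcm5 and Mcm6 ended with single libraries left out (adjusted p up to 0.124 without the 37 °C replicate 1 and 0.116 without the 24 °C replicate 1), as did that of Top2a (0.0702, without the 37 °C replicate 3). For Cdc20, the 3 libraries at 24 °C stood at 71.3, 76.7 and 70.6 FPKM and those at 37 °C at 45.1, 52.6 and 40.5 FPKM. All 3 cold libraries were the higher ones, with a log2 change of 0.66 ± 0.18 (SE, limma adjusted p = 0.00666). Mcm3 stood at 103, 89.1 and 95.0 FPKM against 69.4, 71.6 and 67.6 FPKM, which did not overlap either, with a log2 change of 0.45 ± 0.10 (limma adjusted p = 0.00113). Psrc1 was not called in these cells (0.13 ± 0.09), at 42.8, 44.3 and 40.2 FPKM against 36.2, 40.6 and 39.3 FPKM. Among the falls, Cdc42bpa had a log2 change of -0.49 ± 0.08 and Cdc16 one of -0.40 ± 0.07. When only the unstimulated groups at 24 and 37 °C were fitted, 12 rose and 3 fell.

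Other cell cycle genes, taken from lists written for this work with earlier results of these data known, were also mostly higher at 24 °C. The lists are thus not independent of these data. Averaged over the treatments, 26.1% of all genes were called higher and 28.8% lower. Of 37 further G2 and mitosis genes, 29 rose and none fell (median log2 change 0.28), and of 42 further G1/S and replication genes 33 rose and 2 fell (median 0.33). Cdk1, the kinase partner of cyclins A and B, was at 319 ± 18.3 FPKM at 24 °C and 249 ± 32.9 FPKM at 37 °C (SD, n = 15 each). The proliferation marker gene Mki67 stood at 66.8 ± 6.9 against 45.1 ± 5.47 FPKM, and Ube2c, which encodes a ubiquitin-conjugating enzyme of the anaphase-promoting complex, at 86.6 ± 6.12 against 44.2 ± 7.06 FPKM. The replication genes Gins1 and Pcna rose by log2 changes of 0.77 and 0.31. Among 30 regulators and CDK inhibitors the directions were more mixed, with 15 rises and 6 falls: E2f1 (0.62) and Foxm1 (0.51), which drive S phase and mitotic genes, rose, while E2f3 fell by 0.53 and Rb1 fell by 0.37.

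At 40 °C some of the mitotic genes that had risen at 24 °C fell, such as Plk1 and Kif23, while none of the helicase genes was called. Of the 6 mitotic kinases and passengers, 1 was called lower. Averaged over the treatments, 5 members rose and 20 fell against 37 °C, with 12.1% of all genes called higher and 15.4% lower, 27.5% in all. The member median was a log2 change of -0.05, against -0.02 over all genes. This comparison shares its 37 °C libraries with the one at 24 °C, so the values are not independent of it.

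Mitotic kinesins and kinetochore genes made up 10 of the 20 falls, with 5 of 8 kinesins and 5 of 16 centromere genes. Kif23 had a lowest, median and highest level of 15.8, 29.7 and 43.7 FPKM at 40 °C and of 26.6, 39.4 and 52.8 FPKM at 37 °C. These ranges overlapped widely, and the log2 change was -0.53 ± 0.09 (SE, limma adjusted p = 1.8e-05). Kif15, a motor that helps to hold the spindle apart, fell by 0.39 ± 0.10 and Kif22 fell by 0.30 ± 0.08. Cenpb ran from 26.6 to 37.3 FPKM at 40 °C, and its highest library only just reached the lowest at 37 °C (37.3 FPKM). It fell by 0.37 ± 0.04 (limma adjusted p = 5.4e-11), so that its order over the temperatures was 24, 34, 37 and 40 °C from high to low, with each pair of neighbours in that order overlapping. Cenpi, a subunit of the inner kinetochore, fell by 0.38 ± 0.07.

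Cdc16 and Cdc27 were lower at 40 °C as well as at 24 °C. Cdc16 measured 35.2, 41.4 and 49.4 FPKM at 40 °C, all under the lowest 37 °C library (49.6 FPKM), and fell by 0.35 ± 0.03 (SE, limma adjusted p = 7.7e-12). Cdc27 fell by 0.45 ± 0.07, and its 40 °C libraries (14.6 to 25.0 FPKM) lay below all those at 37 °C (26.8 to 33.5 FPKM). Of the genes of mitotic entry and exit, Ccnb2 fell by 0.43 ± 0.07, Cdc25b fell by 0.30 ± 0.05 and Plk1 fell by 0.22 ± 0.06 (limma adjusted p = 2.6e-06, 9.7e-06 and 0.00642). The falls of Cdc20 (-0.24) and Ccnb1 (-0.22) were lost when any 1 of several libraries was left out, with adjusted p up to 0.0582 and 0.0614, each without the 40 °C unstimulated replicate 3. Not called at 40 °C were Aurka (0.02 ± 0.06), Birc5 (-0.05 ± 0.06), Top2a (0.03 ± 0.05) and all 5 MCM genes.

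The 5 rises at 40 °C included genes of G1 and of origin licensing. Ccnd3 measured 76.1, 87.7 and 111 FPKM at 40 °C and 55.4, 68.3 and 76.7 FPKM at 37 °C, with only the edges of the ranges touching, and rose by 0.37 ± 0.03 (SE, limma adjusted p = 2.8e-12). Cdc6 measured 7.03, 11.6 and 18.7 FPKM at 40 °C and 5.36, 8.19 and 10.2 FPKM at 37 °C, overlapping, and rose by 0.44 ± 0.06 (limma adjusted p = 9.8e-08). Cdc7 rose by 0.30 ± 0.08, Ccnd2 by 0.17 ± 0.03 and the transport kinesin gene Kif3b by 0.13 ± 0.04. For Ccnd2, levels were lowest at 24 °C and highest at 40 °C, and those at 34 and 37 °C lay together between. Other G2 and mitosis genes split with 4 rises and 8 falls of 37, and other G1/S genes likewise with 4 rises and 8 falls of 42. These were 10.8% and 21.6% of the first list and 9.52% and 19% of the second, against 12.1% and 15.4% of all genes.

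In unstimulated cells at 40 °C only 6 members passed, 2 higher and 4 lower, against 2.14% and 2% of all genes (4.14% in all). With the libraries rescaled to a common median the split was 2 higher and 2 lower. The calls were Cdc6 (0.49) and Ccnd3 (0.40) as rises and Kif23 (-0.85), Cdc27 (-0.50), Cenpb (-0.28) and Cdc16 (-0.27) as falls, and none remained when only these groups were fitted. With the term for library runs 2 members were higher and 11 lower, and the added falls included Kif22 (-0.49), Cenpi (-0.44), Ccnb1 (-0.37), Cdc20 (-0.36) and Plk1 (-0.33). Kif23 stood at 17.9, 29.0 and 15.8 FPKM at 40 °C and at 36.5, 39.0 and 36.3 FPKM at 37 °C, with all 3 warm libraries lower. Its call ended without the 40 °C replicate 1 (adjusted p = 0.0613) or replicate 3 (-0.69, adjusted p = 0.124). Cdc6 stood at 13.0, 12.1 and 18.7 FPKM against 9.67, 9.96 and 10.2 FPKM, and its call ended without the 40 °C replicate 3 (0.31, adjusted p = 0.33).

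At 34 °C differences from 37 °C were few and small. Averaged over the treatments, 3 members rose and 6 fell, against 4.58% and 7.04% of all genes (11.6% in all), and after rescaling to a common median 4 rose and 5 fell. With the term for library runs 4 rose and 10 fell, among them Plk1 (-0.14, adjusted p = 0.0129). Psrc1 ran from 28.0 to 40.9 FPKM at 34 °C and from 33.4 to 46.0 FPKM at 37 °C, overlapping, and fell by 0.26 ± 0.04. Ccnd3 fell by 0.22 ± 0.03, Bub1b fell by 0.27 ± 0.07, Kif18b fell by 0.20 ± 0.06 and Cdc14b, a phosphatase gene, fell by 0.28 ± 0.08. The rises were those of Cdc42se2 (0.29 ± 0.05), which encodes a small binding partner of Cdc42, and of Mcm6 and Mcm3, both 0.14 on the log2 scale. The calls of Mcm3 (limma adjusted p = 0.0352) and Aurka (-0.18, adjusted p = 0.0487) ended on leaving out any 1 of 12 and 18 libraries, with adjusted p up to 0.0811 and 0.107 (without the 37 °C TNF-α 1 h replicate 1 and the 37 °C IL-1β 1 h replicate 2). In unstimulated cells Cdc42se1 was the only member called, at 27.8 against 41.0 FPKM on average (limma adjusted p = 0.0196), where 0.366% of all genes were called. Aurka passed there too with the term for library runs (-0.40, adjusted p = 0.0155).

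**Figure D4:**
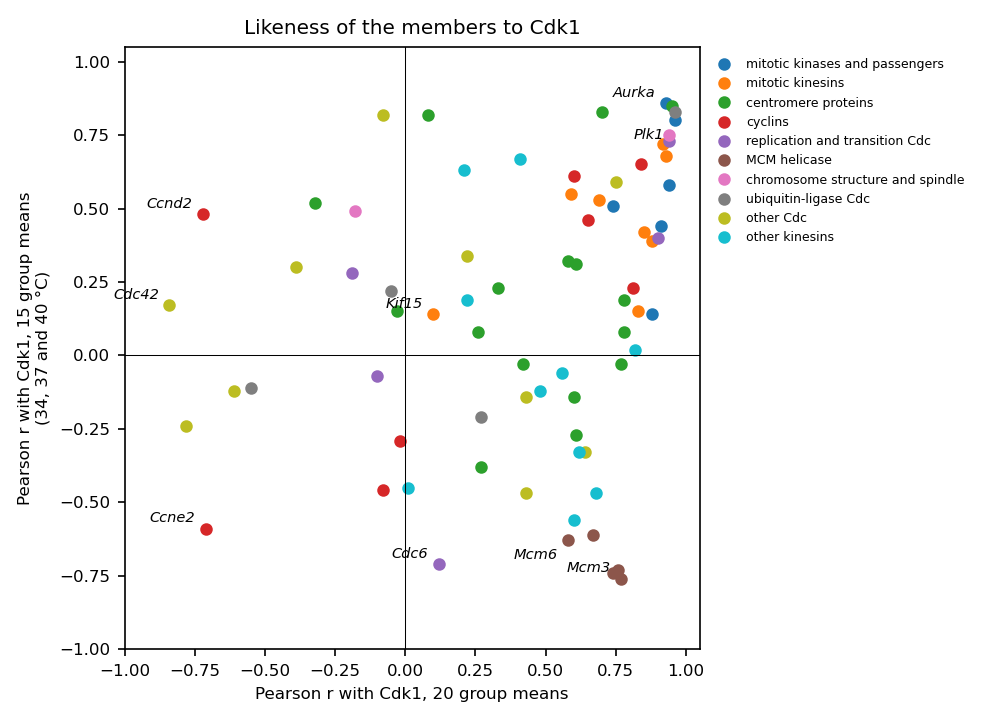
Pearson correlation of each member with Cdk1 over the 20 group means of log2(FPKM + 1) (horizontal axis) and over the 15 group means without 24 °C (vertical axis), by role. The MCM genes lie at 0.58 to 0.77 on the first axis and at -0.76 to -0.61 on the second.

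Likeness to Cdk1, a G2 and mitosis gene outside the list, was used to describe how far the members shared 1 pattern over the 20 groups. The group means share their libraries with the comparisons above, so the correlations are a description without a test. Over the 20 groups, 26 of 74 members correlated with Cdk1 at r above 0.7. They included all 6 mitotic kinases and passengers (0.74 to 0.96) and 5 of 8 mitotic kinesins. The share over all genes was not computed, so the count does not show that this likeness is particular to the members. Plk1 (0.96), Cdc34 (0.96), Cenpa (0.95), Cdc20 (0.94), Birc5 (0.94) and Top2a (0.94) were the most alike. Cdc42 (-0.84), Ccnd2 (-0.72) and Ccne2 (-0.71) ran against Cdk1.

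The MCM genes and some of the mitotic genes parted once 24 °C was left out. Over the 15 groups at 34, 37 and 40 °C the MCM genes correlated with Cdk1 at -0.76 to -0.61, although over all 20 groups they had correlated at 0.58 to 0.77. Cdc6, at 0.12 over all groups, fell to the same side with -0.71. Aurka (0.86), Cenpa (0.85), Cdc34 (0.83) and Plk1 (0.80) stayed high on the positive side. Other mitotic genes lost most of their likeness, such as Aurkb (0.88 to 0.14), Kif14 (0.83 to 0.15) and Ccnb2 (0.81 to 0.23). Without 24 °C the median was 0.54 for mitotic kinases and passengers, 0.47 for mitotic kinesins and 0.17 for centromere genes. Birc5, with 0.58, and Kif22, with 0.39, were less like Cdk1 without the cold groups. Ccnd2 turned from -0.72 to 0.48.

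The largest cytokine response averaged over the temperatures was a fall of the replication gene Cdc6. Averaged over the 4 temperatures, 3 h of TNF-α raised 6 members and lowered 11, against 11.5% of all genes called higher and 16.9% lower, so the members were called about as often as other genes (23% against 28.4%). With the libraries rescaled to a common median, the split was 8 and 8, and with the term for library runs 11 and 12. After 3 h of IL-1β, 2 members rose and 4 fell, against 6.58% and 6.13% of all genes (12.7% in all), and after rescaling 4 and 4. With the term for library runs, 8 members rose and 6 fell after IL-1β, where 16.6% of all genes were called. The 6 added rises were those of Aurka (0.20, limma adjusted p = 0.000679), Plk1 (0.19, adjusted p = 0.0027), Ccnb1 (0.19), Cenpa (0.25), Cenpl (0.20) and Top2a (0.10), and the added falls those of Mcm2 (-0.11) and Ccne2 (-0.36). Both responses share the unstimulated libraries, and their values are given side by side.

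Cdc6, which loads the MCM ring onto origins, had the largest fall in both. At 37 °C it stood at 9.67, 9.96 and 10.2 FPKM in unstimulated cells, at 6.78, 5.37 and 6.49 FPKM after 3 h of TNF-α and at 5.36, 6.15 and 8.19 FPKM after 3 h of IL-1β. No stimulated library reached an unstimulated one. The same held at 34 °C, where 11.0, 9.77 and 10.6 FPKM in unstimulated cells stood against 7.02, 5.17 and 5.49 FPKM with TNF-α. At 40 °C, 13.0, 12.1 and 18.7 FPKM stood against 7.03, 8.37 and 8.54 FPKM with TNF-α. The log2 changes with TNF-α were -0.74, -0.60 and -0.78 at 34, 37 and 40 °C (SE 0.13, limma adjusted p = 3.5e-05, 0.000588 and 1.0e-05). With IL-1β they were -0.74, -0.55 and -0.62. The IL-1β call at 37 °C ended without the IL-1β 3 h replicate 1 (-0.43, adjusted p = 0.0983).

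At 24 °C Cdc6 was not called with either cytokine. Unstimulated cells stood at 9.97, 12.7 and 9.52 FPKM, cells after 3 h of TNF-α at 11.3, 11.0 and 11.5 FPKM, and cells after 3 h of IL-1β at 11.6, 8.67 and 9.47 FPKM, all overlapping. The TNF-α response at 24 °C differed from that at 37 °C by a log2 value of 0.68 (limma interaction, adjusted p = 0.0139), where 7.92% of all genes were called. That call ended without the 37 °C TNF-α 3 h replicate 2 (0.59, adjusted p = 0.0594) or the 24 °C unstimulated replicate 3 (0.60, adjusted p = 0.0519).

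The 3 D cyclins took separate courses under TNF-α. Ccnd1 rose by 0.27 averaged over the temperatures (limma adjusted p = 5.6e-06), Ccnd3 fell by 0.32 (adjusted p = 8.5e-10) and Ccnd2 rose by 0.12, a call that ended under quantile normalization (0.09, adjusted p = 0.128). At 40 °C Ccnd1 stood at 120, 109 and 121 FPKM in unstimulated cells, at 165, 146 and 196 FPKM after 3 h of TNF-α and at 96.0, 101 and 104 FPKM after 3 h of IL-1β. The TNF-α libraries were all higher, with a log2 change of 0.52 ± 0.09 (SE, limma adjusted p = 1.8e-05), and the IL-1β libraries all lower, though that change (-0.21 ± 0.09) missed the threshold (adjusted p = 0.167) unless the term for library runs was used (adjusted p = 0.0176). At 37 °C TNF-α gave 163, 135 and 161 FPKM against 122, 113 and 128 FPKM, also without overlap, but that call ended without either of 2 libraries, the unstimulated replicate 2 (adjusted p = 0.0554) or the TNF-α replicate 1 (adjusted p = 0.0581).

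Ccnd3 at 34 °C fell from 65.8, 71.5 and 63.7 FPKM to 44.9, 44.5 and 50.1 FPKM with TNF-α, a log2 change of -0.52 ± 0.07 (limma adjusted p = 5.3e-07). At equal hours, TNF-α and IL-1β were compared directly, which removes the difference in time at temperature. At 3 h Ccnd1 was higher with TNF-α by 0.35 ± 0.05 (SE, limma adjusted p = 1.1e-07), Ccnd3 was lower (-0.17, adjusted p = 0.000745) and Cdc42ep4 was higher by 0.17, the last a call that any 1 of 12 libraries ended (adjusted p up to 0.101, without the 37 °C TNF-α replicate 1). These 3 were the members called, where 9.57% of all genes were.

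Of the 5 MCM genes 3 fell after 3 h of TNF-α, while none of the 6 mitotic kinases and passengers was called, although Aurka (0.17) passed with the term for library runs (adjusted p = 0.0023). Mcm6 fell by 0.20, Mcm2 fell by 0.19 and Mcm7 fell by 0.15, Ccne1 fell by 0.33 (limma adjusted p = 0.000715) and Ccne2 fell by 0.44 (adjusted p = 0.00665), the E cyclins that start S phase. Of the 42 other G1/S and replication genes 15 fell and none rose, such as the uracil glycosylase gene Ung (-0.48) and Dtl (-0.44), which encodes a ubiquitin ligase adaptor of S phase. Of the 37 other G2 and mitosis genes, 3 rose and 1 fell. In this comparison, averaged over the temperatures, 11.5% of all genes were called higher and 16.9% lower. At 37 °C Mcm6 stood at 80.6, 83.0 and 82.9 FPKM unstimulated and at 63.2, 63.9 and 67.9 FPKM after TNF-α, without overlap, with a log2 change of -0.33 ± 0.08 (limma adjusted p = 0.00193).

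Kif23 and Cenpl rose with TNF-α over the temperatures, by 0.43 (limma adjusted p = 0.00138) and 0.40 (adjusted p = 0.000299). Cenpl, a kinetochore gene, at 34 °C went from 6.09, 6.41 and 5.83 FPKM to 10.6, 12.2 and 9.34 FPKM, without overlap. Kif23 also rose after 3 h of IL-1β (0.37, adjusted p = 0.0109), as did Cdc20 (0.29), whose call ended on leaving out any 1 of 4 libraries, with adjusted p up to 0.0659 without the 40 °C unstimulated replicate 3. Plk1 was called at 40 °C alone, with both cytokines: 33.1, 43.1 and 26.7 FPKM unstimulated stood against 40.1, 49.5 and 49.0 FPKM with TNF-α, overlapping in 1 library, and 40.1, 54.0 and 44.0 FPKM with IL-1β. Both calls ended on leaving out any 1 of 4 libraries, most of all the unstimulated replicate 3, which left log2 changes of 0.28 with TNF-α (adjusted p = 0.224) and 0.27 with IL-1β (adjusted p = 0.351). The TNF-α response at 40 °C did not pass the test of a difference from that at 37 °C (0.41 ± 0.20, limma interaction, adjusted p = 0.52), nor did the IL-1β response (0.24 ± 0.20, adjusted p = 0.88).

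**Figure D5:**
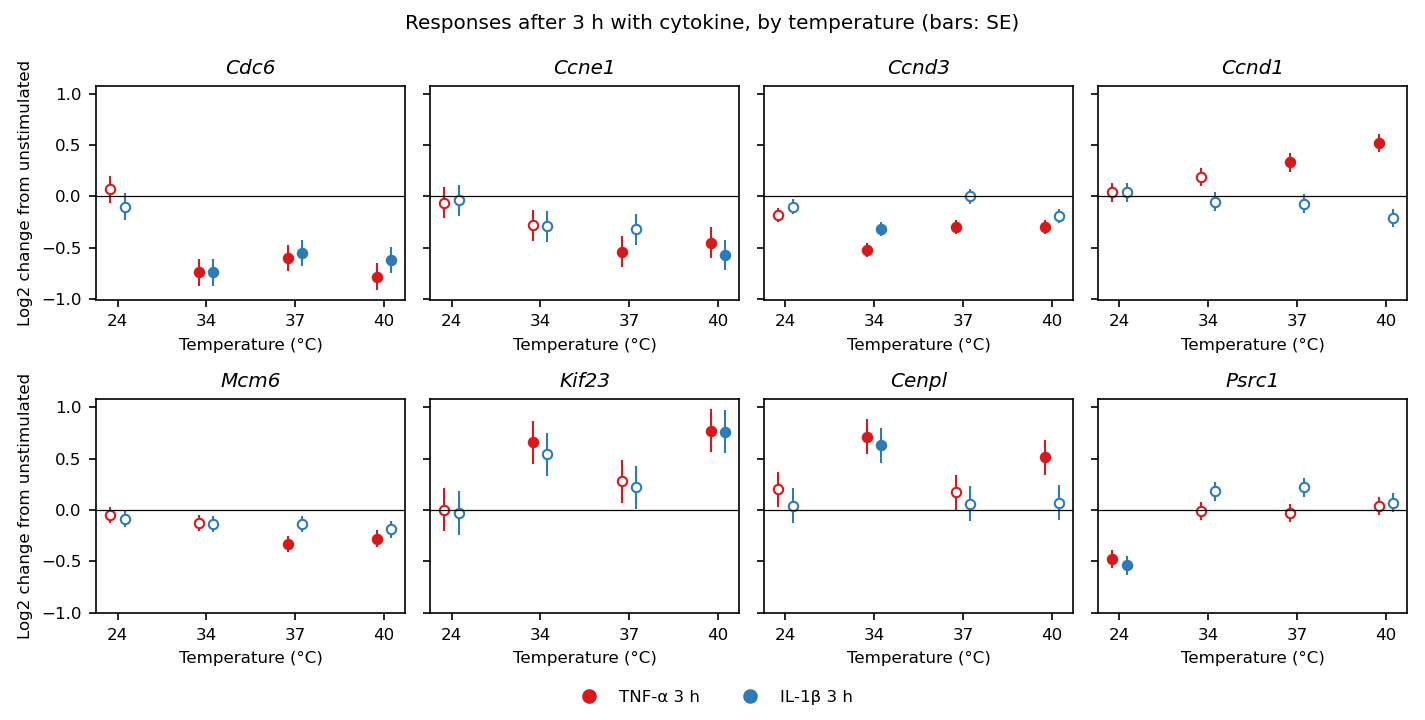
Log2 change of 8 members after 3 h of TNF-α or IL-1β against unstimulated cells of the same temperature (°C, set at equal distances), with bars of 1 SE. Filled points passed the limma test at adjusted p below 0.05. Cdc6 lies between -0.78 and -0.55 at 34, 37 and 40 °C and near 0 at 24 °C, and Psrc1 is below 0 with filled points at 24 °C alone.

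After 1 h the responses were smaller. TNF-α raised Cdc42ep4, an effector of Cdc42, by 0.35 (limma adjusted p = 2.9e-06), and lowered Cenpo (-0.31), Cdc7 (-0.28), Psrc1 (-0.20) and Cdc25b (-0.18), 5 of 74 members in all, where 3.66% of all genes were called higher and 3.26% lower (6.92% over both directions). The calls of Cenpo, Cdc7 and Cdc25b each ended on leaving out any 1 of 13 or more libraries, with adjusted p up to 0.109, 0.0993 and 0.121. Cdc42ep4 at 37 °C went from 15.0, 15.6 and 12.3 FPKM to 19.0, 19.1 and 18.4 FPKM, without overlap, but the call at this temperature ended on leaving out any 1 of 4 libraries (0.29, adjusted p = 0.324, without the unstimulated replicate 3). IL-1β for 1 h gave 0 member calls by limma, with 6 members at an unadjusted p below 0.05, where 3.94% of all genes were called. The term for library runs gave 1 rise and 7 falls after TNF-α, and 1 rise and 1 fall after IL-1β. TNF-α against IL-1β at 1 h also gave 0, with 5 at an unadjusted p below 0.05, where 0.524% of all genes were called.

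After 3 h of TNF-α, 40 °C was the temperature with the most member calls: 16 members passed there, 8 higher and 8 lower, where 19.3% of all genes were called. At 34 and 37 °C 7 members passed each, where 12.6% and 14% of all genes were called, and at 24 °C 1 passed, where 2.42% were called. Apart from the tie of 34 and 37 °C, the order of the member counts thus followed that of all genes. With the term for library runs, 10 members were higher and 3 lower at 34 °C, where 15.8% of all genes were called. At 37 °C 3 were then higher and 8 lower, where 17.2% were called, so the order of these temperatures was not that of all genes. At 40 °C Aurka, the kinase of the spindle poles, had a log2 change of 0.50 ± 0.14 (SE, limma adjusted p = 0.0078), a call that ended without the unstimulated replicate 3 (0.41, adjusted p = 0.0651) or the TNF-α replicate 2 (0.37, adjusted p = 0.1). Kif3b, a subunit of the motor kinesin-2 that serves cilia, rose by 0.41 (adjusted p = 0.000308), a call that no left-out library ended. Mcm6 and Mcm2 had changes of -0.28 ± 0.08 and -0.26 ± 0.08, and each call ended with single libraries left out. Ccne1 went from 18.8, 17.4 and 17.6 FPKM to 15.6, 10.0 and 13.4 FPKM, all lower, but this call too ended with any 1 of 5 libraries left out (adjusted p up to 0.274, without the TNF-α replicate 2).

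After 3 h of IL-1β, 6 members passed at 40 °C, where 8.65% of all genes were called. They were Cdc6, Ccne1 (-0.57) and Cdc42se2 (-0.39) as falls, and Kif23 (0.76), Aurka (0.46) and Plk1 (0.43) as rises. Kif23 went from 17.9, 29.0 and 15.8 FPKM to 29.7, 32.7 and 43.7 FPKM, without overlap, and its call ended without any 1 of 3 libraries (adjusted p up to 0.133, without the IL-1β replicate 3). The other calls but that of Cdc6 were as fragile, ending with 4 libraries for Plk1 (adjusted p up to 0.351), 3 for Aurka (0.204) and 2 each for Ccne1 (0.0646) and Cdc42se2 (0.0857). The term for library runs gave 7 higher and 4 lower. At 34 °C the called members were Cdc6, Ccnd3 (-0.32) and Cenpl (0.63), where 5.28% of all genes were called. Ccnd3 fell there from 65.8, 71.5 and 63.7 FPKM to 55.1, 49.8 and 55.6 FPKM, without overlap, a call that ended without the IL-1β replicate 2 (-0.27, adjusted p = 0.0505). The Cenpl call ended without any 1 of 3 libraries (adjusted p up to 0.113, without the same one). With the term for library runs 6 were higher and 2 lower at 34 °C, the rises including Cdc20 (0.49) and Aurka (0.40). At 37 °C it was Cdc6 alone, where 4.35% of all genes were called, and at 24 °C Psrc1 alone, where 1.42% were. At 37 °C the term for library runs gave 1 higher and 1 lower. After 1 h, Cdc42ep4 passed at 37 °C (0.38) and at 40 °C (0.54) with TNF-α, where 2.99% and 5.37% of all genes were called. No left-out library ended its call at 40 °C. There Psrc1 (-0.34), Ccne1 (-0.51) and Kif18b (-0.45) passed with it as falls, calls that ended with any 1 of 3, 5 and 3 libraries left out (adjusted p up to 0.131, 0.221 and 0.211).

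Over the 4 responses at each of 4 temperatures, the members gave 48 calls (19 higher, 29 lower) in 22 genes, 4.05% of their tests against 5.28% over all genes. Of the 48 calls, 34 ended when at least 1 library was left out and 14 did not, and with the term for library runs there were 78. At 24 °C the 3 calls were all of Psrc1 (1 of them after 1 h of IL-1β, where 0.0494% of all genes were called, a call that ended with any 1 of 5 of the 6 libraries left out, with adjusted p from 0.0556 to 0.184), a gene of spindle microtubule dynamics. It stood at 42.8, 44.3 and 40.2 FPKM in unstimulated cells, at 31.9, 30.7 and 27.7 FPKM after 3 h of TNF-α and at 29.3, 26.8 and 30.5 FPKM after 3 h of IL-1β. All stimulated libraries were lower, with log2 changes of -0.48 ± 0.09 and -0.54 ± 0.09 (limma adjusted p = 0.000367 and 7.5e-05). No left-out library ended these calls at 3 h, but both ended when only the compared groups were fitted. At 37 °C, Psrc1 stood at 36.2, 40.6 and 39.3 FPKM unstimulated and at 46.0, 44.3 and 45.3 FPKM after IL-1β, all higher, though this change (0.22 ± 0.09) was not called (adjusted p = 0.197). The IL-1β response of Psrc1 at 24 °C differed from that at 37 °C by -0.76 ± 0.13 (limma interaction, adjusted p = 7.7e-05), where 2.28% of all genes were called, and no single left-out library ended this call. The TNF-α response of Psrc1 differed by -0.46, that of the transcription elongation gene Cdc73 by -0.55 and that of Kif26b by 0.94 (limma interaction, adjusted p = 0.0148, 0.0161 and 0.0395), calls that 3, 2 and 9 of 12 left-out libraries ended. In all, 12 interaction terms per member, each a response minus the same response at 37 °C, gave 5 member calls in 4 genes, 0.563% of these tests against 1.13% over all genes. There were 12 member calls with the term for library runs. Of these, the 3 h TNF-α response at 24 °C gave 3 higher and 5 lower, and the 3 h IL-1β response at 24 °C gave 1 higher and 2 lower.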

How the data were processed

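Libraries of total RNA were made from 20 groups of 3 replicates, and the deposited table holds FPKM values for 10122 genes, 3.77% of them 0. Per the submitters' processing notes, STAR 2.7.11b, RSEM 1.3.3, edgeR and build GRCm39 were used. The gene identifiers are those of a GRCm38 annotation, and coordinates given here are those of the RefSeq GRCm38.p6 table. The authors' filter is not given in the sources used here, but every gene reached 1 FPKM in at least 4 libraries. Counts were not analysed here, so log2(FPKM + 1) was fitted with limma 3.58.1 in R 4.3.3, with a mean for each group, moderated variances with a trend, and Benjamini-Hochberg adjustment over all genes in each comparison. All 60 libraries shared 1 estimate of the spread (40 residual degrees of freedom). Changes on this scale understate those of low genes. A filter of 1 FPKM in 3 libraries removed 0 genes. Depth was estimated from 845 genes of 1 transcript, whose values at low levels came within 0.15 of whole reads in 84.5% of 7132 cases, so exact counts were not recovered. Reads of overlapping or near-identical genes cannot be told apart, and the counting of strand is not given in the sources used here.

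The members, role groups, gene lists and tests were chosen with earlier results of these data known. For each comparison the text names the largest called rises and falls, the best known cell cycle members and up to 4 called genes of each further list. Other members named were chosen after their values were seen. The fit was tested on simulated data. Alternatives were a pseudocount of 0.25, a mean of at least 5 FPKM, rescaling to a common median, quantile normalization, array quality weights, a replicate block, a replicate block by run of library numbers (added after the data were seen), a fit on the compared groups only, and leaving out each of the 60 libraries.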

Additional observations from a re-analysis of the deposited data

Results flagged for a closer look

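Among members, 5 responses at 24 °C differed from the same response at 37 °C by an interaction term (limma, adjusted p below 0.05). For the 3 h TNF-α term 5.41% of members were called, against 7.92% of all genes. For the 3 h IL-1β term 1.35% of members were called, against 2.28% of all genes. Psrc1 had a log2 difference of -0.76 in its 3 h IL-1β response (adjusted p = 7.7e-05), with a response of -0.54 at 24 °C and 0.22 at 37 °C, and no left-out library of the 12 involved ended the call. Its 3 h TNF-α response differed by -0.46 (adjusted p = 0.0148), a call that ended with 3 of 12 left-out libraries, such as the 37 °C TNF-α replicate 2 (-0.40, adjusted p = 0.0596). It also ended when only the compared groups were fitted.

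The 3 h TNF-α response of Cdc73, a subunit of the PAF1 transcription elongation complex and no cell cycle gene by its main role, differed by -0.55 (adjusted p = 0.0161). At 24 °C it stood at 21.3, 23.8 and 25.1 FPKM unstimulated and 18.9, 19.3 and 19.5 FPKM with TNF-α, and at 37 °C at 19.5, 22.4 and 20.8 FPKM and 25.0, 26.5 and 25.4 FPKM. Every TNF-α library was lower at 24 °C and higher at 37 °C. The call ended with 2 of 12 left-out libraries (adjusted p up to 0.0532, without the 24 °C unstimulated replicate 3). Cdc6 differed by 0.68 (adjusted p = 0.0139) and Kif26b by 0.94 (adjusted p = 0.0395). The Kif26b call ended with 9 of 12 left-out libraries, with adjusted p up to 0.144 without the 37 °C unstimulated replicate 1, and when only the compared groups were fitted.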

How the results depend on the processing

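Counts of called members at 24 and 40 °C averaged over treatments, and after 3 h of TNF-α averaged over temperatures, stayed within 1.5 times the reported count under all alternatives. Leaving out 1 library gave 51 to 57 calls at 24 °C (55 reported) and 21 to 27 at 40 °C (25 reported). Fitting only the compared groups gave 15 calls in unstimulated cells at 24 °C (26 reported), 0 at 34 °C (1 reported), 0 at 40 °C (6 reported), 14 over the 16 single responses (48 reported) and 3 interactions (5 reported). Fewer libraries then estimate the spread. For the 5 calls after 1 h of TNF-α, rescaling gave 2, quantile normalization 3 and quality weights 3. For the 0 calls after 1 h of IL-1β, a mean of at least 5 FPKM gave 1, rescaling 1, quantile normalization 2 and quality weights 1. Leaving out 1 library gave 0 to 1 call in unstimulated cells at 34 °C, 1 to 6 at 40 °C, 2 to 5 after 1 h of TNF-α, 0 to 2 after 1 h of IL-1β, 0 to 1 for TNF-α against IL-1β at 1 h, and 2 to 7 interactions. The cause was not tested in these cases. Of the results for single genes, none changed direction.

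Over 570 pairs of libraries of like number in 2 groups, the deviations of all genes correlated at 0.036 on average (-0.119 to 0.223), and 56 pairs passed 0.1. An average over all genes cannot show whether the numbers pair the libraries for the members, which varied with them. The main fit held no term for the numbers, so calls and missed calls near the threshold depend on this choice. With the replicate block, calls numbered 10 in unstimulated cells at 40 °C (2 higher, 8 lower), 8 after 1 h of TNF-α, 2 after 1 h of IL-1β, 14 after 3 h of IL-1β (6 without it) and 10 interactions. With a replicate block by run of library numbers, chosen after the data were seen, they numbered 2 in unstimulated cells at 34 °C and 13 at 40 °C, 14 at 34 °C averaged over treatments, 8 after 1 h of TNF-α, 2 after 1 h of IL-1β, 14 after 3 h of IL-1β, 78 over the single responses and 12 interactions.

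Depth of 3.42M to 7.42M fragments (M for 1e+06) limits the low members, of which 7 lay below a mean of 5 FPKM.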
